A study of Mus musculus with 12 samples.

Results

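The 40 genes described here encode the machinery that copies DNA in S phase, the phase of the cell cycle in which the genome is replicated. They were taken from a list of replication and S phase genes, with the requirement of at least 10 normalized counts in at least 3 of 12 libraries. All 40 listed genes met it, out of 13111 genes that did so and 23479 in the deposited table.

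RNA was measured in cells of 1 B cell lymphoma from an Eµ-Myc;Eµ-rtTA mouse on the C57BL/6 background. In this model the Eµ enhancer of the immunoglobulin heavy chain drives Myc in B lineage cells, so every group, controls included, carried the Myc and rtTA transgenes. The cells had been grown in culture with IL-7 and given a retrovirus with a puromycin resistance gene alone (vector cells) or with that gene and TFEB-ERT2 (TFEB cells). TFEB is a transcription factor known for lysosome and autophagy genes. In the form used its Ser-211 was mutated to Ala, and it was joined to ERT2, a mutant hormone-binding piece of the human estrogen receptor that answers to 4-hydroxytamoxifen (4-OHT). Both kinds of cell received vehicle or 4-OHT over 4 days, which gave 4 groups of 3 libraries: vector vehicle, vector 4-OHT, TFEB vehicle and TFEB 4-OHT. The dose of 4-OHT is uncertain: it reads 250 nM in the protocol of the labels, but ng/mL stands as the unit in the design text. All groups derive from a single lymphoma, and whether replicates were separate cultures is not stated, so every p-value reflects the spread among these libraries alone, which may be technical.

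Replication origins are licensed in G1 when the origin recognition complex (ORC), CDC6 and CDT1 load the MCM2-7 helicase onto DNA as an inactive double ring. At the start of S phase, cyclin-dependent kinases and DBF4-dependent kinase, helped by MCM10, join CDC45 and the GINS complex to MCM2-7 to form the active helicase. DNA polymerase alpha-primase then lays down primers, the RFC clamp loader places the PCNA ring, and polymerases epsilon and delta extend the leading and lagging strands. FEN1 and LIG1 process and join Okazaki fragments, the RPA complex covers single-stranded DNA, and CAF-1, UHRF1 and DNMT1 restore nucleosomes and DNA methylation behind the fork. Many of these genes are textbook targets of E2F transcription factors, which are released from RB proteins as cells enter S phase.

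The promoters of the members were searched for E2F words because that site is the classic shared element of replication genes. RefSeq promoters (build GRCm38.p6, 250 bases before to 50 bases after the gene's start) were in the reference table for 30 of the 40 members. The words searched were TTTCCCGC, TTTCGCGC, TTTGCCGC and TTTGGCGC on both strands, and matches of different words can overlap. Of the 30 promoters 15 (50%) held at least 1 word, against 4.69% of the 9587 tested genes with a promoter in the table and 2.61% of all 27025 promoters of that length. A match is a description of letters and not a measured binding site. Promoters for Mcm4, Gmnn, Gins1, Gins2, Gins4, Prim2, Pole, Rfc2, Ccne2 and Ccna2 were not matched.

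Stretches of 80 bases around the word are shown for 3 members that fell in TFEB cells with 4-OHT and for 1 that did not pass the test (Mcm5). They lie on GRCm38 at chr1:128359772-128359851 (minus strand) for Mcm6, chr17:56304092-56304171 (plus strand) for Uhrf1, chrX:93632250-93632329 (minus strand) for Pola1 and chr8:75109320-75109399 (plus strand) for Mcm5. None overlapped an exon of the GENCODE M21 annotation, and that of Uhrf1 lay inside the annotated span of its own gene. Capitals mark the E2F word, or a pair of overlapping words in Mcm6 and Mcm5, and all are written 5′ to 3′ on the gene's strand.
Mcm6: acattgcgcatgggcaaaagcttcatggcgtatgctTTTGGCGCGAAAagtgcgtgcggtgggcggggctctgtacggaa
Uhrf1: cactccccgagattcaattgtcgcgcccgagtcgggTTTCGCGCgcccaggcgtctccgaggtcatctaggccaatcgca
Pola1: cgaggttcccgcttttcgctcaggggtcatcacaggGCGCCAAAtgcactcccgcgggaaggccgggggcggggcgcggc
Mcm5: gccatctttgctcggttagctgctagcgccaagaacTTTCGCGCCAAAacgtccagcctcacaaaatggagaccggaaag

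For 4 further members that fell (Cdc6, Mcm7, Pold1 and Lig1) and 2 that did not pass the test (Cdk2 and Orc1), the 30 bases around 1 word are shown in the same way. Positions on GRCm38 are chr11:98908002-98908031 (plus strand) for Cdc6, chr5:138172030-138172059 (minus) for Mcm7, chr7:44548766-44548795 (minus) for Pold1, chr7:13278841-13278870 (plus) for Lig1, chr10:128705173-128705202 (minus) for Cdk2 and chr4:108579416-108579445 (plus) for Orc1.
Cdc6: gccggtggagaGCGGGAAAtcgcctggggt
Mcm7: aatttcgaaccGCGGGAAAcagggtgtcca
Pold1: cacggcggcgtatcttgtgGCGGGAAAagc
Lig1: cgccaaagtgcGCGCGAAAtctgtgtggcg
Cdk2: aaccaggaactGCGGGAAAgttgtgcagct
Orc1: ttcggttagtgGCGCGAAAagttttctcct
The word began at -138 in Cdc6, -165 in Mcm7, -140 in Cdk2 and -27 in Orc1, and at 40 in Pold1 and 27 in Lig1, counted from 1 at the gene's start with no position 0 and with negative positions before it. Cdc6, Mcm7, Pold1 and Cdk2 carried the same 8 letters, GCGGGAAA, and Lig1 and Orc1 carried GCGCGAAA.

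The libraries held 11849029 to 22109283 recovered reads each, and 11390 to 19250 genes had at least 1 read. Within groups the chi-square per degree of freedom was 7.88 to 25.5, so libraries of a group differed by more than counting error. On the first principal component of all tested genes, 3 libraries stood apart from the rest of their groups: vector 4-OHT library 2 (94.3 against -56.6 and -77.0), TFEB vehicle library 3 (99.1 against 15.3 and -56.9) and TFEB 4-OHT library 2 (137 against -23.3 and 49.4). Without the first and second of these, 15 members were called lower with 4-OHT in TFEB cells (14 with all libraries), 20 in the interaction (14) and 26 between the cells in 4-OHT (25), against 13.0%, 7.39% and 12.7% of all tested genes. Without all 3, the counts were 13, 13 and 25, against 10.0%, 5.01% and 9.78%. The ribosomal RNA entry Rn45s took up 4.13% to 4.53% of the counts with TFEB 4-OHT and 4.76% to 6.93% in the other 9 libraries, and its part in the results was not tested. The first component of the 40 members held 62.4% of their variance. On it the TFEB 4-OHT libraries lay at 1.82 to 2.29 and all 9 others at -1.71 to 0.138. The same split was seen in 7794 genes with higher counts (200 or more on average), where component 1 held 65.3%. There the TFEB 4-OHT libraries lay at 45.72 to 46.56 and all 9 others at -19.01 to -9.008. The split was thus not particular to the members. Tfeb, whose reads can come from the endogenous gene and the transgene, stood at 195 to 255 normalized counts in the vector libraries, 1476 to 1955 with TFEB vehicle and 581 to 711 with TFEB 4-OHT. All 8 markers of B cell precursors were expressed in every group.

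In TFEB cells, 14 of the 40 replication genes fell with 4-OHT, none rose and 26 did not pass the test (limma on log2 of the normalized count plus 1, adjusted p under 0.05 over all 13111 tested genes). They were the helicase and loading genes Mcm6, Mcm7 and Cdc6, the GINS genes Gins1 and Gins2, the primase and polymerase genes Pola1, Prim2 and Pold1, the clamp loader gene Rfc4, the ligase gene Lig1, the cyclin gene Ccna2, and the chromatin genes Dnmt1, Uhrf1 and Chaf1b. That is 35.0% of the members. Gene positions given below are those of GENCODE M21 on GRCm38. Among all tested genes 13.9% were called lower and 13.7% higher. The median change of the members was -0.20 on the log2 scale, against 0.04 over all tested genes, and 31 of 40 members lay below zero. In 19 members every TFEB 4-OHT library lay below every TFEB vehicle library, which held for 18.4% of all tested genes. By edgeR's quasi-likelihood test on the recovered reads 15 members were lower, against 14.7% of all tested genes, and by DESeq2 16, against 16.2%. None was higher by either tool, nor at an unadjusted p under 0.05 in limma. In bulk RNA, fewer cells in S phase and less of these RNAs per cell cannot be told apart.

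**Figure D1:**
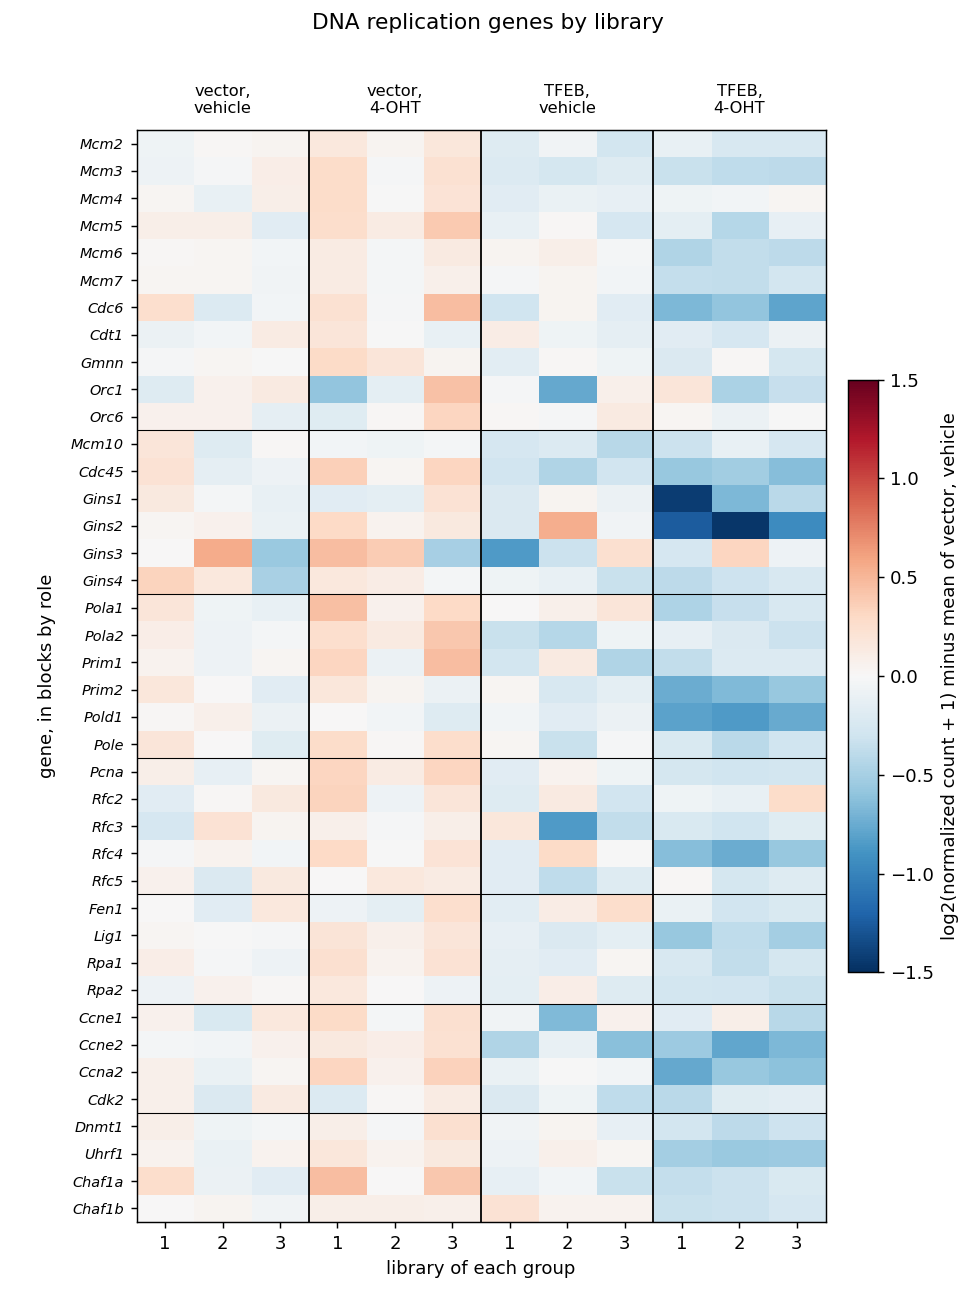
Level of each of the 40 members (lines) in each of the 12 libraries (columns), as log2 of the normalized count plus 1 minus the mean of the vector vehicle libraries, on a colour scale from -1.5 to 1.5. The 3 TFEB 4-OHT libraries are lowest for Gins2, whose change against TFEB vehicle was -1.31, while Orc1 and Gins3 had changes of 0.02 and 0.31.

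The mean log2 level of the 40 members relative to vector vehicle was -0.37, -0.37 and -0.33 in the TFEB 4-OHT libraries and -0.14, -0.10 and -0.12 in the TFEB vehicle libraries. It was 0.16, 0.03 and 0.17 in the vector 4-OHT libraries. The vector vehicle libraries lay at 0.05, -0.02 and -0.03. The TFEB 4-OHT libraries were the lowest of the 12 and the TFEB vehicle libraries came next, with no overlap between them or with the vector libraries. The vector vehicle and vector 4-OHT libraries overlapped. For 56 other replication genes, described below, the TFEB 4-OHT libraries were also lowest, at -0.230 to -0.225. Their TFEB vehicle libraries (-0.03, -0.02 and -0.01) overlapped vector vehicle (0.04, -0.03 and -0.01). The mean of all tested genes ran from -0.12 to 0.70 over the 12 libraries. Summed, the members took up 0.360% to 0.371% of all normalized counts with TFEB 4-OHT, 0.430% to 0.432% with TFEB vehicle, 0.439% to 0.479% with vector vehicle and 0.469% to 0.528% with vector 4-OHT.

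Of the 11 origin licensing genes, Cdc6, Mcm6 and Mcm7 fell in TFEB cells and the other 8 did not pass the test. Cdc6 (chr11:98907801-98923940), the ATPase that with ORC loads the MCM ring, lay at 511, 642 and 558 normalized counts in the 3 TFEB vehicle libraries and at 392, 416 and 361 in the 3 TFEB 4-OHT libraries. Its vector libraries held 746, 543 and 608 with vehicle and 733, 617 and 862 with 4-OHT. All TFEB 4-OHT libraries lay below all 9 others, and the change in TFEB cells was a fall by 0.55 on the log2 scale (SE 0.15, adjusted p = 0.00592), or 1.46-fold (limma).

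Mcm6 and Mcm7 encode subunits of the helicase ring. Mcm6 stood at 4497, 4664 and 4291 normalized counts with TFEB vehicle and 3213, 3389.6 and 3327 with TFEB 4-OHT. In the vector cells it stood at 4436, 4458 and 4261 with vehicle and 4779, 4289 and 4804 with 4-OHT, so 9 libraries shared a level from 4261 to 4804 and the TFEB 4-OHT libraries lay below it. It fell by 0.44 on the log2 scale (SE 0.08, adjusted p = 5.2e-05). Mcm7 held 3771, 3945 and 3729.6 with TFEB vehicle and 2983, 2969 and 3164 with TFEB 4-OHT, against 3891, 3888 and 3700.5 and 4169.6, 3761 and 4029.6 in vector cells with vehicle and 4-OHT. Again the TFEB 4-OHT libraries were below all others, with a fall by 0.33 (SE 0.08, adjusted p = 0.00160). P-values are limma's.

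The other ring subunits did not pass the test in TFEB cells. Mcm3 went from 2317, 2223 and 2325 to 2107, 2039.5 and 2032 normalized counts. The groups did not overlap, but the log2 change of -0.15 did not pass the limma test (SE 0.09, adjusted p = 0.230). Mcm2 and Mcm5 had log2 changes of -0.03 and -0.12 with overlapping groups. Mcm4 was the subunit with the opposite sign: its TFEB 4-OHT libraries (4724, 4788 and 5047) all lay above its TFEB vehicle libraries (4405, 4622 and 4546), at a log2 change of 0.10 (SE 0.08, adjusted p = 0.437) that did not pass the limma test. Its 95% interval, -0.07 to 0.27, did not overlap that of Mcm6, -0.60 to -0.28. Differences between subunits were not tested.

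Among the remaining licensing genes, Cdt1, which loads MCM2-7 with CDC6, and Gmnn, whose product geminin inhibits CDT1, had log2 changes of -0.14 and -0.08 in TFEB cells. Orc6 had a change of -0.07. Orc1, the large ORC subunit, changed least of the licensing genes, at 0.02 (SE 0.25, adjusted p = 0.978) by limma. Its libraries ranged widely within groups, with 291, 173 and 309.6 normalized counts in TFEB vehicle and 335, 210.4 and 231 in TFEB 4-OHT, and the 95% interval of its change ran from -0.49 to 0.53.

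The most negative log2 change among all 40 members belonged to a helicase activation gene. Gins2, which encodes a subunit of the GINS tetramer, stood at 327, 557 and 369 normalized counts in TFEB vehicle and 160.3, 138 and 199 in TFEB 4-OHT. Vector cells held 389, 401 and 357 with vehicle and 470.2, 395 and 424 with 4-OHT. The TFEB 4-OHT libraries were below all 9 others, and Gins2 fell by 1.31 on the log2 scale (SE 0.20, adjusted p = 4.14e-06), or 2.47-fold, by limma. In GENCODE M21 (GRCm38) the gene lies at chr8:120578633-120589304 on the minus strand, and 67.3% of its exon bases lie opposite exons of Gse1. The sources used here do not say whether reads were counted by strand, so reads of the overlap may be assigned to either gene or left out. Gse1 itself had a log2 change of 0.13 (SE 0.10, adjusted p = 0.352) by limma.

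Gins1, a second subunit, held 232, 276 and 253 normalized counts with TFEB vehicle and 100.1, 168 and 203 with TFEB 4-OHT, against 297, 264 and 248 and 238, 243 and 312 in the vector groups. All TFEB 4-OHT libraries lay below the others, with library 1 the lowest, and Gins1 fell by 0.75 (SE 0.24, adjusted p = 0.0170) by limma. Without TFEB vehicle library 2 the adjusted p was 0.0586 and without TFEB 4-OHT library 1 it was 0.173, so the Gins1 call ends without either library. It also ended without the 3 libraries that stood apart (adjusted p = 0.106).

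The other GINS subunits did not follow. Gins3 had 78.0, 113 and 167 normalized counts with TFEB vehicle and 118, 178 and 135 with TFEB 4-OHT. Its groups overlapped and its log2 change was 0.31 (SE 0.34, adjusted p = 0.590), the highest value among the members and one that did not pass the limma test. Gins4 had a change of -0.15. Cdc45, which joins GINS and MCM2-7 in the active helicase, went from 806, 725 and 809 to 664, 688 and 633. The Cdc45 groups did not overlap, and its log2 change of -0.24 did not pass the limma test (SE 0.12, adjusted p = 0.160). Mcm10, which acts in helicase activation, changed least in this set, at 0.06 (SE 0.12, adjusted p = 0.818), with 744, 772 and 666 and 708, 819.6 and 741 normalized counts.

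Of the 6 primase and polymerase genes, Pold1, Prim2 and Pola1 fell in TFEB cells. Pold1 (chr7:44532746-44548849), the catalytic subunit of polymerase delta, stood at 2350.4, 2135 and 2277 normalized counts with TFEB vehicle and 1379.6, 1336 and 1422 with TFEB 4-OHT. In vector cells it stood at 2431, 2552 and 2260.0 with vehicle and 2429, 2346 and 2107 with 4-OHT. The libraries of each group lay close together and the TFEB 4-OHT libraries were below the other 9. Pold1 fell by 0.71 on the log2 scale (SE 0.09, adjusted p = 1.72e-07), or 1.63-fold, by limma.

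Prim2, the large subunit of primase, held 1018, 849 and 905 normalized counts with TFEB vehicle and 595, 634 and 674 with TFEB 4-OHT, and 1124, 1001 and 889 and 1126, 1029 and 944 in vector cells with vehicle and 4-OHT. Prim2 fell by 0.54 (SE 0.12, adjusted p = 0.000700). Pola1, the catalytic subunit of polymerase alpha, held 1684, 1776 and 1904 with TFEB vehicle and 1220.3, 1327 and 1424 with TFEB 4-OHT, and 1903, 1612 and 1552 and 2296, 1757 and 2068 in vector cells. Pola1 fell by 0.43 (SE 0.11, adjusted p = 0.00187). In both genes all TFEB 4-OHT libraries lay below all others, and the p-values are limma's.

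Pole, the catalytic subunit of polymerase epsilon, went from 2285, 1776 and 2202 to 1907, 1694 and 1812 normalized counts in TFEB cells, where 1 vehicle library lay below 2 of the 4-OHT libraries. Its log2 change of -0.20 did not pass the limma test (SE 0.11, adjusted p = 0.166), and without TFEB vehicle library 2 it did (adjusted p = 0.0279). The small primase subunit gene Prim1 had a change of -0.06. Pola2, the accessory subunit of polymerase alpha, changed least in this set, at 0.05 (SE 0.12, adjusted p = 0.828), from 740.3, 693 and 894 to 859, 800.3 and 746. Within the alpha-primase complex the catalytic polymerase subunit and the large primase subunit thus fell, while the other members of the complex did not pass the test.

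**Figure D2:**
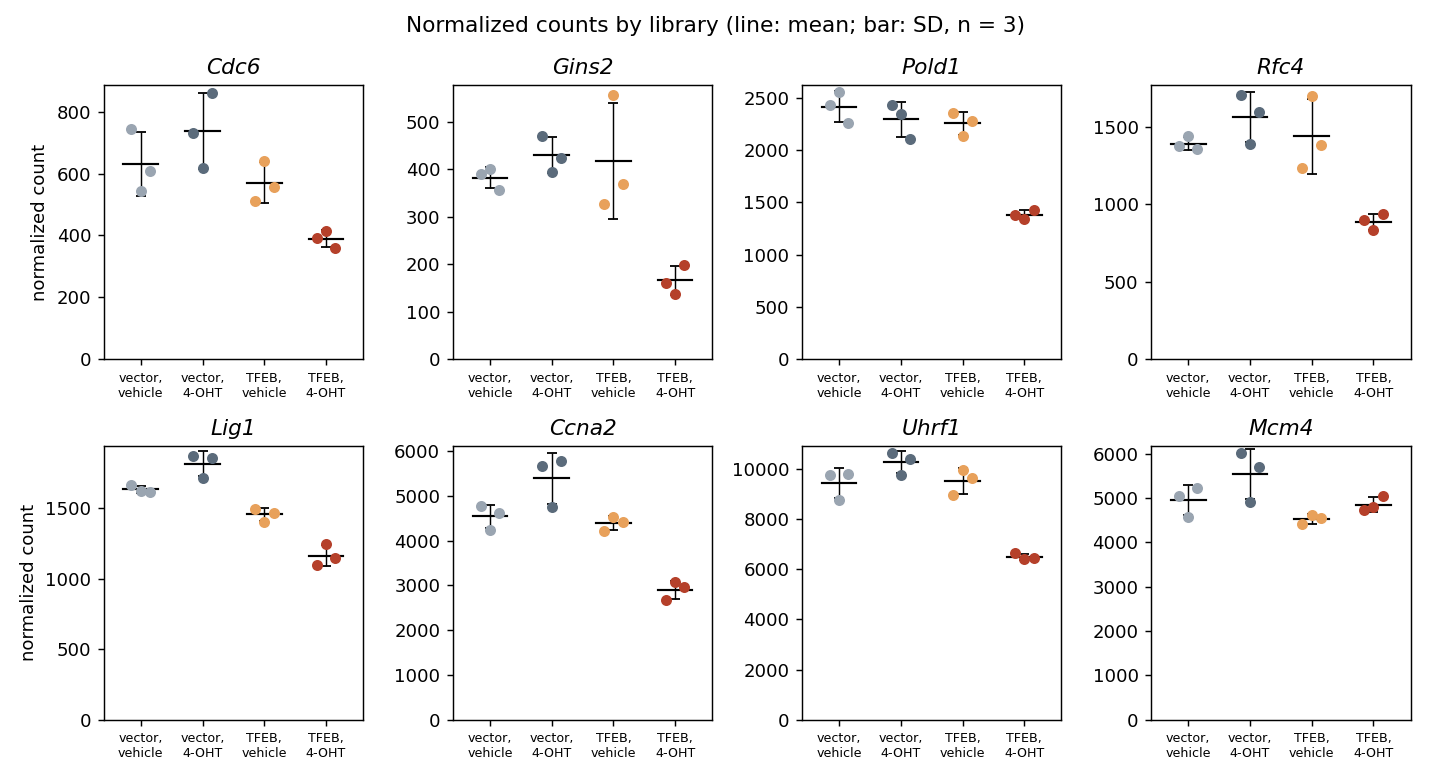
Normalized counts of Cdc6, Gins2, Pold1, Rfc4, Lig1, Ccna2, Uhrf1 and Mcm4 in the 4 groups. Points are libraries, 3 per group, horizontal lines are group means and vertical bars are SD. In all genes shown except Mcm4 the TFEB 4-OHT libraries lie below the other 9. Mcm4 was at 4724, 4788 and 5047 with TFEB 4-OHT, within the range of the vector vehicle libraries.

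Of the 5 clamp and clamp loader genes Rfc4 alone passed the test. Rfc4 (chr16:23113943-23127737), a small subunit of the loader, stood at 1233, 1704 and 1385 normalized counts with TFEB vehicle and 897, 833 and 936 with TFEB 4-OHT. Vector cells had 1380.5, 1440.1 and 1358 with vehicle and 1710.1, 1390.5 and 1599 with 4-OHT. Every TFEB 4-OHT library lay below the other 9, and Rfc4 fell by 0.69 on the log2 scale (SE 0.11, adjusted p = 1.37e-05), or 1.61-fold, by limma.

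Pcna, the sliding clamp itself, held 3174, 3699.8 and 3408 normalized counts with TFEB vehicle and 2964, 2900.4 and 2951 with TFEB 4-OHT. The groups did not overlap, but its log2 change of -0.22 (SE 0.09, adjusted p = 0.0563) did not pass the limma test. It passed in 6 other settings, among them edgeR (adjusted p = 0.0460), DESeq2 (adjusted p = 0.0208) and limma without TFEB vehicle library 1 (adjusted p = 0.0318). The remaining small loader subunits had positive changes that did not pass the test. Rfc2 went from 662, 832 and 619 to 724, 701 and 913, a log2 change of 0.15 (SE 0.14, adjusted p = 0.518). Rfc3 went from 432, 211 and 297 to 327, 309.8 and 338, a change of 0.11 (SE 0.20, adjusted p = 0.778). Rfc5 changed least, from 606, 524 and 593 to 688, 565 and 595, at 0.10 (SE 0.13, adjusted p = 0.682). The 95% intervals of Rfc2 (-0.14 to 0.43), Rfc3 (-0.30 to 0.52) and Rfc5 (-0.17 to 0.37) all lay above that of Rfc4 (-0.91 to -0.46), all by limma.

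Among the 4 genes for Okazaki fragment maturation and single-stranded DNA binding, Lig1 fell. Lig1 (chr7:13277283-13311433), the ligase that joins Okazaki fragments, stood at 1494, 1402 and 1468 normalized counts with TFEB vehicle and 1099.8, 1248 and 1143 with TFEB 4-OHT. In vector cells it stood at 1663, 1620.3 and 1610.3 with vehicle and 1871, 1714 and 1857 with 4-OHT. The 4 groups formed separate levels, with vector 4-OHT at the top and TFEB 4-OHT at the bottom, and Lig1 fell by 0.32 (SE 0.09, adjusted p = 0.00804) in TFEB cells by limma.

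Fen1, the flap nuclease, went from 1302, 1574 and 1739 to 1354, 1194 and 1238 normalized counts, with overlapping groups and a log2 change of -0.28 (SE 0.12, adjusted p = 0.0799). Without TFEB vehicle library 1, Fen1 passed (adjusted p = 0.0190). In the annotation 78.8% of the exon bases of Fen1 lie opposite the antisense gene Gm10143, so its count is uncertain. Rpa2 went from 598, 711 and 579 to 547, 542 and 527 and Rpa1 from 1516, 1479 and 1699 to 1406, 1288 and 1379.5. These RPA genes had groups that did not overlap and log2 changes of -0.22 (SE 0.13, adjusted p = 0.236) and -0.20 (SE 0.10, adjusted p = 0.125), neither of which passed the limma test.

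Of the cyclin and kinase genes, Ccna2 fell. Ccna2 (chr3:36564865-36572150) encodes cyclin A2, the partner of CDK2 in S phase, and stood at 4221, 4536 and 4422 normalized counts with TFEB vehicle and 2673, 3067 and 2966 with TFEB 4-OHT. Vector cells had 4766, 4249 and 4612 with vehicle and 5668, 4747 and 5770.4 with 4-OHT. All TFEB 4-OHT libraries lay below the other 9, and Ccna2 fell by 0.60 (SE 0.09, adjusted p = 1.79e-06), or 1.52-fold, by limma. The E cyclins and CDK2 act at the G1 to S transition, and none passed the test. Ccne2 went from 759, 956 and 672 to 709, 605 and 651, a log2 change of -0.27 (SE 0.12, adjusted p = 0.109). Without TFEB vehicle library 3, Ccne2 passed (adjusted p = 0.0228). Ccne1 went from 293, 192 and 319 to 270.1, 324 and 229, a change of 0.05 (SE 0.21, adjusted p = 0.917). Cdk2 changed least, at -0.03 (SE 0.12, adjusted p = 0.915), from 1104, 1222 and 986 to 966, 1128 and 1146. Its 95% interval was -0.27 to 0.21, and that of Ccna2 was -0.78 to -0.42.

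Of the 4 chromatin genes, Uhrf1, Chaf1b and Dnmt1 fell. Uhrf1 (chr17:56303321-56323486) brings DNMT1 to newly copied DNA, and stood at 8956, 9958 and 9631 normalized counts with TFEB vehicle and 6636, 6422 and 6439 with TFEB 4-OHT. Vector cells held 9761, 8753 and 9769 with vehicle and 10616, 9763 and 10394 with 4-OHT. The 3 TFEB 4-OHT libraries lay close together and below the other 9, and Uhrf1 fell by 0.55 (SE 0.08, adjusted p = 1.34e-06) by limma.

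Dnmt1, the maintenance DNA methyltransferase, held 6229, 6643 and 5934 normalized counts with TFEB vehicle and 5319, 4915 and 5188 with TFEB 4-OHT, and 6883, 6156 and 6338 and 6840.5, 6362 and 7648 in vector cells. Dnmt1 fell by 0.29 (SE 0.08, adjusted p = 0.00838) by limma, and without TFEB 4-OHT library 2 its adjusted p was 0.0528. Chaf1b, the middle subunit of CAF-1, held 1837, 1640.2 and 1642 with TFEB vehicle and 1253, 1266 and 1325 with TFEB 4-OHT, and 1595, 1624 and 1529 and 1683, 1678 and 1665 in vector cells. Chaf1b fell by 0.41 (SE 0.09, adjusted p = 0.000729). In both genes the TFEB 4-OHT libraries were below all others. Chaf1a, the large subunit, went from 1506, 1602 and 1301 to 1279.5, 1318 and 1409.6, with overlapping groups and a log2 change of -0.13 (SE 0.12, adjusted p = 0.480) that did not pass the limma test. 52.5% of the exon bases of Chaf1a lie opposite exons of Ubxn6, so its count is uncertain.

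Per kilobase of exon (protein-coding transcripts of GENCODE M21), the members spanned a wide range of levels in TFEB vehicle cells. Uhrf1 was highest at 2595 ± 139 normalized counts per kb (SD, n = 3), followed by Pcna at 2258 ± 174. Mcm7 (1288 ± 38.6), Mcm4 (1261 ± 30.6) and Ccna2 (1211 ± 44.0) came next, with SD ranges that overlapped. Differences between genes were not tested. At the low end were Cdc6 (119 ± 13.9), Gins2 (107 ± 31.4) and Orc1 (85.6 ± 24.6), whose spreads overlapped, and Gins3 at 44.1 ± 16.6. With TFEB 4-OHT, Pcna was highest at 1936 ± 22.1 and Uhrf1 second at 1772 ± 32.5, while Gins2 was lowest at 42.5 ± 7.88 and Gins3 stood at 53.1 ± 11.4, within its spread of Gins2. Uhrf1 near the top of the range and Gins2 near the bottom thus both fell, but other genes at either end did not. The means of Mcm4 (1261 to 1352), Orc1 (85.6 to 85.8) and Gins3 (44.1 to 53.1) were not lower with TFEB 4-OHT.

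In vector cells the same treatment moved no member past the threshold. 0 of 40 were called by limma, edgeR or DESeq2, 6 had an unadjusted p under 0.05 in limma, against 6.27% of all tested genes, and 0.0153% of all tested genes (2 genes) were called in either direction. The median change of the members was 0.13 on the log2 scale, against 0.03 over all tested genes, with 35 of 40 above zero. The highest was 0.29 for Chaf1a (SE 0.12, adjusted p = 0.675), from 1969, 1546 and 1465 to 2266, 1647 and 2181 normalized counts in overlapping groups. Pcna went from 3796, 3282 and 3650.0 to 4462, 3879.5 and 4451 and Lig1 from 1663, 1620.3 and 1610.3 to 1871, 1714 and 1857. Both had groups that did not overlap, with log2 changes of 0.25 (SE 0.09, adjusted p = 0.507) and 0.15 (SE 0.09, adjusted p = 0.879), none of which passed the limma test.

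The difference between these responses was tested as an interaction, the change with 4-OHT in TFEB cells minus that in vector cells. It passed the limma test in 14 of 40 members, all with the lower value in TFEB cells, against 8.01% of all tested genes called lower. The median difference was -0.38. They were Mcm6, Mcm7, Cdc6, Gins2, Pola1, Prim2, Pold1, Pcna, Rfc4, Lig1, Ccna2, Dnmt1, Uhrf1 and Chaf1b. The interaction uses the TFEB libraries of the comparison above, so its calls are not independent of it. No member was higher at an unadjusted p under 0.05. Gins2 had a difference of -1.47 (SE 0.28, adjusted p = 0.000225), Rfc4 of -0.85 (SE 0.16, adjusted p = 0.000176) and Ccna2 of -0.84 (SE 0.12, adjusted p = 4.42e-06). Cdc6, at -0.77 (SE 0.21, adjusted p = 0.0108), and Pola1, at -0.70 (SE 0.15, adjusted p = 0.000824), followed. Uhrf1 had a difference of -0.67 (SE 0.11, adjusted p = 2.88e-05), Pold1 of -0.63 (SE 0.13, adjusted p = 0.000407) and Prim2 of -0.58 (SE 0.17, adjusted p = 0.0146). Among the called members the 10 largest values were completed by Mcm6, at -0.51 (SE 0.11, adjusted p = 0.00105), and Chaf1b, at -0.49 (SE 0.13, adjusted p = 0.00640). For Pcna the change was -0.22 in TFEB cells and 0.25 in vector cells, and their difference of -0.47 passed (SE 0.12, adjusted p = 0.00557) although neither change did. Gins1 had a difference of -0.71 (SE 0.34, adjusted p = 0.174), with values of -0.75 and -0.04 in the 2 kinds of cell. For Cdc6, Prim2 and Dnmt1 the interaction ended without a variance trend, at adjusted p of 0.0632, 0.0535 and 0.0913. It also ended for Prim2 without vector vehicle library 3 (0.0575), vector 4-OHT library 1 (0.0529) or the 3 libraries that stood apart (0.106), and for Dnmt1 without vector vehicle library 2 (0.0544), vector 4-OHT library 3 (0.0596) or TFEB 4-OHT library 2 (0.0624).

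**Figure D3:**
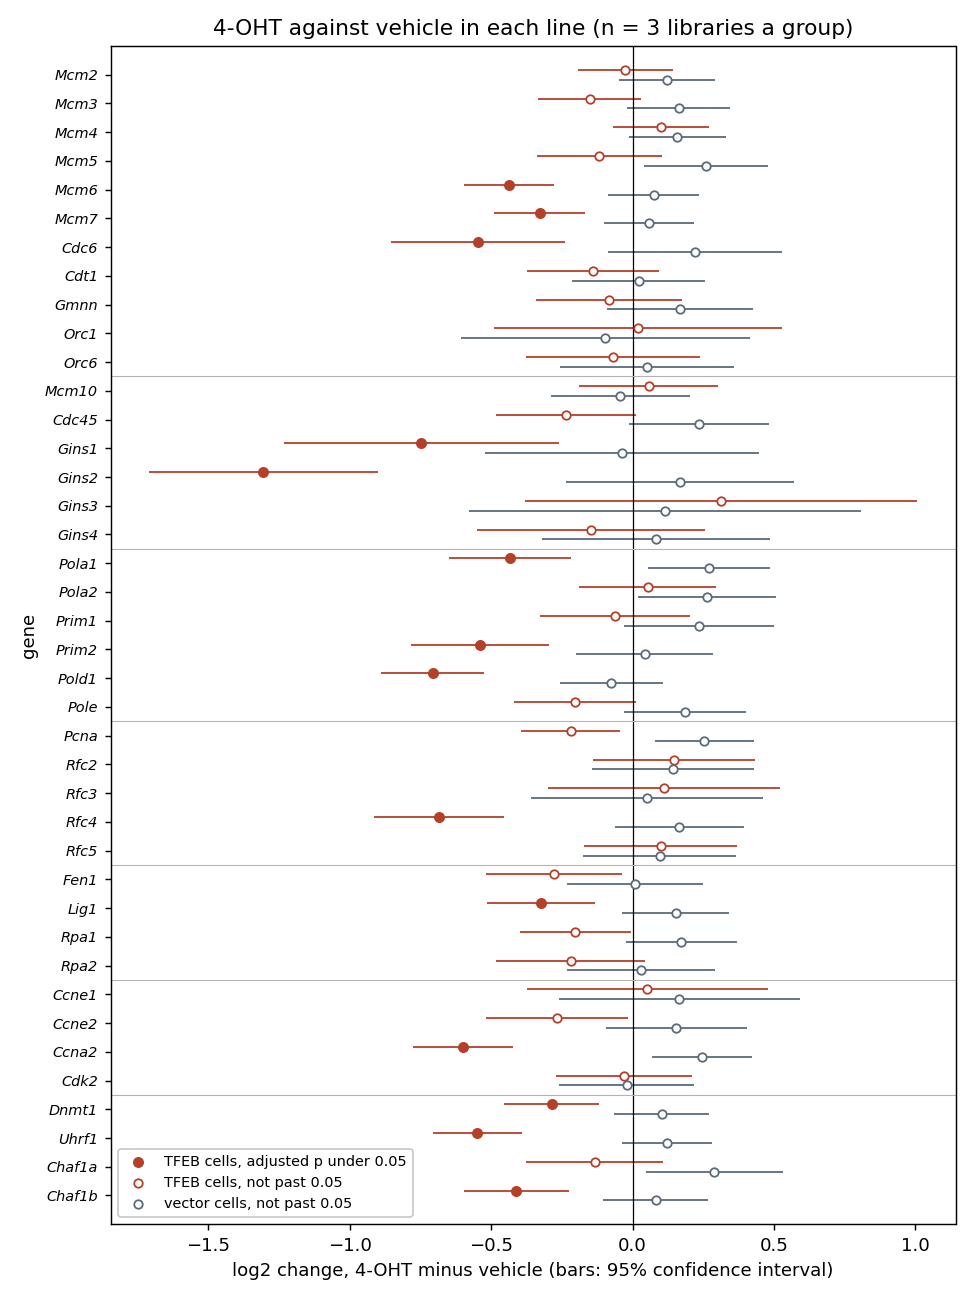
Change with 4-OHT on the log2 scale for each of the 40 members in TFEB cells and in vector cells. Points are limma estimates from 3 libraries per group and bars are 95% intervals. In TFEB cells the values run from -1.31 (Gins2) to 0.31 (Gins3), and in vector cells from -0.10 (Orc1) to 0.29 (Chaf1a).

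Without the ligand, no member passed the test between TFEB cells and vector cells. 0 of 40 passed in limma or edgeR, and 2 passed in DESeq2 (Ccne2 and Cdc45), against 9.34% of all tested genes. In limma 6 had an unadjusted p under 0.05, against 17.7% of all tested genes, and 5.38% of all tested genes were called in either direction. The median difference was -0.12, against 0.05 over all tested genes, and 32 of 40 members lay below zero. Ccne2 came closest, with 1018, 1005 and 1088 normalized counts in vector vehicle and 759, 956 and 672 in TFEB vehicle libraries. Its groups did not overlap and its log2 difference was -0.40 (SE 0.12, adjusted p = 0.0526) by limma. It passed with a minimum value of 50, with upper-quartile scaling, in DESeq2, and without vector 4-OHT library 3 or TFEB vehicle library 2. Cdc45 followed at -0.34 (SE 0.12, adjusted p = 0.103).

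With 4-OHT in both, TFEB cells were lower than vector cells in 25 of 40 members and higher in none, against 13.5% of all tested genes called lower. This comparison shares its TFEB 4-OHT libraries with the one within TFEB cells. All 40 members lay below zero and the median difference was -0.47, against 0.05 over all tested genes. All 6 primase and polymerase genes and all 4 chromatin genes passed. They included 11 genes (Ccne2, Cdc45, Chaf1a, Mcm2, Mcm3, Mcm5, Pcna, Pola2, Pole, Prim1 and Rpa1) whose changes within TFEB cells ran from -0.27 (Ccne2) to 0.05 (Pola2) and did not pass. The largest values by limma were those of Gins2 at -1.38 (SE 0.20, adjusted p = 1.61e-06), Cdc6 at -0.91 (SE 0.15, adjusted p = 1.62e-05) and Ccna2 at -0.89 (SE 0.09, adjusted p = 9.26e-10). Next came Ccne2 at -0.82 (SE 0.12, adjusted p = 3.22e-06), Rfc4 at -0.81 (SE 0.11, adjusted p = 8.12e-07) and Cdc45 at -0.81 (SE 0.12, adjusted p = 3.04e-06). Gins1 followed at -0.80 (SE 0.24, adjusted p = 0.0107), Pold1 at -0.73 (SE 0.09, adjusted p = 9.35e-08), Prim2 at -0.70 (SE 0.12, adjusted p = 2.35e-05) and Uhrf1 at -0.66 (SE 0.08, adjusted p = 5.01e-08). The Gins1 call here ended without vector 4-OHT library 3 (adjusted p = 0.0615) or TFEB 4-OHT library 1 (adjusted p = 0.123), and without the 3 libraries that stood apart (adjusted p = 0.0689).

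Over the 4 groups, Ccne2 stood at 1037 ± 44.6 normalized counts (SD, n = 3) with vector vehicle, 1154 ± 52.6 with vector 4-OHT, 796 ± 146 with TFEB vehicle and 655 ± 52.0 with TFEB 4-OHT. Cdc45 stood at 993 ± 132, 1168 ± 140.1, 779.9 ± 47.9 and 661 ± 27.8 in the same order. In both genes the TFEB 4-OHT mean was the lowest and the vector 4-OHT mean the highest. The 15 members that passed in none of the 5 comparisons were Ccne1, Cdk2, Cdt1, Fen1, Gins3, Gins4, Gmnn, Mcm10, Mcm4, Orc1, Orc6, Rfc2, Rfc3, Rfc5 and Rpa2.

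A further 56 genes of DNA replication were taken from 7 lists, all of which were measured and tested. In TFEB cells 24 of them fell with 4-OHT, 5 rose and 27 did not pass, with a median log2 change of -0.22, where 13.9% of all tested genes fell and 13.7% rose. Without the 3 libraries that stood apart, 16 fell and 2 rose. 0 passed in vector cells by limma, edgeR or DESeq2, where 10 had an unadjusted p under 0.05 in limma, against 6.27% of all tested genes. The interaction passed in 18, all lower, against 8.01% of all tested genes. Without those 3 libraries it passed in 13, all lower, against 5.01%. With all libraries 2 were higher at an unadjusted p under 0.05 in limma. That p was reached by 3360 of 13111 tested genes in either direction. By DESeq2 2 were higher, against 1270 of 13111 tested genes. Top2a, the topoisomerase that untangles replicated chromosomes, had 14091, 16527 and 13423 normalized counts with TFEB vehicle and 7799, 8363 and 8208 with TFEB 4-OHT, and fell by 0.85 (SE 0.09, adjusted p = 2.95e-09) by limma. Top2b fell by 0.23 (SE 0.09, adjusted p = 0.0435), but the call ended in 9 alternative settings (adjusted p of 0.0512 to 0.267), among them without vector 4-OHT library 1, TFEB vehicle library 2 or 3, or TFEB 4-OHT library 2 or 3. Hells, a chromatin remodeler, fell by 0.59 (SE 0.09, adjusted p = 6.24e-06), Asf1b, a histone chaperone, by 0.46 (SE 0.13, adjusted p = 0.00834), and Ssrp1, a subunit of FACT, by 0.37 (SE 0.08, adjusted p = 0.000709).

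Of the 8 genes of fork protection and the S phase checkpoint, 3 fell. Atr, the checkpoint kinase, fell by 0.77 (SE 0.09, adjusted p = 1.26e-07), its effector kinase gene Chek1 by 0.53 (SE 0.16, adjusted p = 0.0155), and Clspn, which couples them, by 0.37 (SE 0.11, adjusted p = 0.00914), all by limma. The Chek1 call ended without TFEB vehicle library 1 (adjusted p = 0.0598) or 2 (0.102), without TFEB 4-OHT library 1 (0.113) or 3 (0.0836), and without a variance trend (0.102). The Clspn call ended without TFEB 4-OHT library 1 (0.0559) and without a variance trend (0.0756). Of 6 ubiquitin ligase genes, Cks1b fell by 0.48 (SE 0.14, adjusted p = 0.00666), Fbxw7 by 0.43 (SE 0.09, adjusted p = 0.000511) and Dtl by 0.38 (SE 0.12, adjusted p = 0.0123). The Cks1b call ended without TFEB vehicle library 2 (0.0934), and the Dtl call without TFEB vehicle library 1 (0.0559) or TFEB 4-OHT library 1 (0.106). The Asf1b call ended without TFEB 4-OHT library 1 (0.0512) or 2 (0.0749). Without a variance trend the calls of Asf1b (0.0834), Cks1b (0.0510) and Dtl (0.0910) also ended.

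Of the 56 other replication genes, 5 rose with 4-OHT in TFEB cells by limma, where 13.7% of all tested genes rose. None of the 56 passed as higher in limma's interaction. Of 8 other firing factors, Recql4, a helicase of origin firing, went from 268, 175 and 191 to 355, 399 and 312 normalized counts and rose by 0.77 (SE 0.21, adjusted p = 0.00527), while Mtbp fell by 0.52 (SE 0.16, adjusted p = 0.0140) and Ticrr by 0.51 (SE 0.10, adjusted p = 0.000209), all by limma. In vector cells Recql4 stood at 414, 293 and 289 with vehicle and 307, 448 and 462 with 4-OHT, so the TFEB vehicle libraries were the lowest of the 4 groups. Of 7 other licensing and origin factors, Mcm9 rose by 0.55 (SE 0.15, adjusted p = 0.00515), its partner gene Mcm8 fell by 0.72 (SE 0.20, adjusted p = 0.00576), and Orc4 fell by 0.37 (SE 0.13, adjusted p = 0.0325). 19.2% of the exon bases of Mcm9 lie opposite Asf1a. The Orc4 call ended without TFEB vehicle library 2 (adjusted p = 0.152), TFEB 4-OHT library 1 (0.107) or TFEB 4-OHT library 3 (0.0888), and the Mtbp call without TFEB vehicle library 2 (0.0926). Both also ended without a variance trend (0.107 and 0.0519).

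Among 16 other polymerase, primase and repair synthesis subunits, 8 fell and 2 rose, where 13.9% of all tested genes fell and 13.7% rose. Pole2, the second subunit of polymerase epsilon, had 8235, 8467 and 7371 normalized counts with TFEB vehicle and 4006, 3405 and 3873 with TFEB 4-OHT, and fell by 1.09 (SE 0.11, adjusted p = 1.08e-09) by limma. In vector cells Pole2 stood at 5108, 5975 and 4840.5 with vehicle and 5329, 4933 and 3636 with 4-OHT. It was 1 of 2 replication genes, with Atr, that were higher in TFEB than in vector cells under vehicle, at 0.60 (SE 0.11, adjusted p = 0.000386) and 0.34 (SE 0.09, adjusted p = 0.0284) by limma, a comparison in which 2.89% of all tested genes were higher. By edgeR 1 of the 56 was higher there, against 316 of 13111 tested genes. By DESeq2 4 were higher and 1 lower, against 685 and 539 of 13111. The Atr call ended in 7 alternative settings (adjusted p of 0.0563 to 0.186), among them edgeR (0.0745) and leaving out TFEB vehicle library 1 or 2 or vector vehicle library 1 or 3. The Pole2 call ended without a variance trend (0.0944) and without the 3 libraries that stood apart (0.0581). Pold4, a small subunit of polymerase delta, fell by 1.04 (SE 0.21, adjusted p = 0.000241) within TFEB cells by limma. In the annotation 24.6% of the exon bases of Pold4 are shared with AC109138.7 on the same strand, so its count is uncertain. Pole4, a histone-fold subunit of polymerase epsilon, rose by 0.60 (SE 0.18, adjusted p = 0.0113) within TFEB cells by limma. The Pole4 call ended without TFEB 4-OHT library 1 (adjusted p = 0.0603). Without the 3 libraries that stood apart, the calls within TFEB cells also ended for Asf1b (0.210), Cks1b (0.0846), Clspn (0.163), Mcm8 (0.0821), Mcm9 (0.0506), Orc4 (0.107) and Recql4 (0.174).

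Placed in their complexes, subunits of 1 machine did not all pass together. In each of 10 complexes (ORC, MCM2-7, GINS, polymerases alpha-primase, delta and epsilon, RFC, RPA, RNase H2 and CAF-1) at least 1 subunit gene passed the test in TFEB cells, and in none did every subunit. Of 42 subunits 17 fell and 2 rose, where 13.9% of all tested genes fell and 13.7% rose. As 27.5% of all tested genes passed in either direction, a complex can hold a call at the general rate. Whether these complexes held more was not tested. Polymerase epsilon was the single complex with calls in both directions, with Pole2 at -1.09 and Pole4 at 0.60, and Pole3 also higher. GINS ran from -1.31 (Gins2) to 0.31 (Gins3) and RFC from -0.69 (Rfc4) to 0.15 (Rfc2). In CAF-1 the values lay closer, from -0.41 (Chaf1b) to -0.13 (Chaf1a). Differences between the subunits of a complex were not tested.

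**Figure D4:**
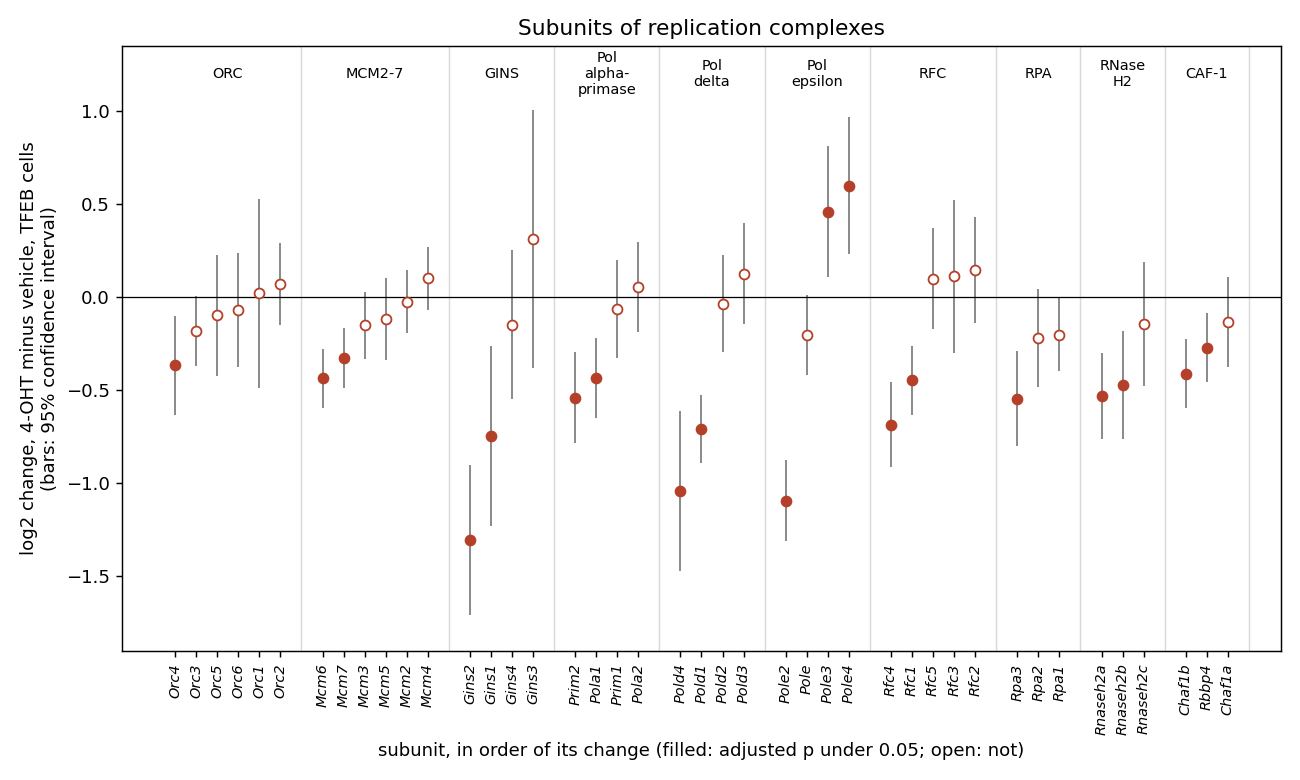
Change with 4-OHT in TFEB cells, on the log2 scale, of each subunit gene of 10 replication complexes, with limma estimates as points (filled where adjusted p was under 0.05) and 95% intervals as bars. 17 of 42 subunits were called lower and 2 higher, and the lowest values are those of Gins2 (-1.31), Pole2 (-1.09) and Pold4 (-1.04).

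Of the members with a promoter in the table, 8 of the 10 called lower in TFEB cells and 7 of the 20 not called held an E2F word. The 15 genes with a word had a median log2 change of -0.29 with 4-OHT in TFEB cells and the 15 without one had -0.13, while the 10 without a promoter had -0.24. For TFEB minus vector cells in 4-OHT the medians lay closer for genes with a word (-0.48) and without one (-0.39). Genes without a promoter in the table were lowest there, at -0.60. Uhrf1 (-0.55), Mcm6 (-0.44) and Pola1 (-0.43), whose sequences are printed above, all fell, whereas Mcm5 (-0.12), with a pair of overlapping words like those of Mcm6, did not pass the test. Of the shorter sites, GCGGGAAA was shared by Cdc6, Mcm7 and Pold1, which fell, and Cdk2 (-0.03), which did not pass. GCGCGAAA was shared by Lig1, which fell, and Orc1 (0.02), which did not pass. Rfc4 (-0.69) and Chaf1b (-0.41) fell and held none of the 4 words in the window. CACGTG, the E-box core, was in 5 of 30 member promoters (16.7%) against 11.5% of tested genes, and CCAAT, on both strands, in 20 of 30 (66.7%) against 43.5%. Of the 49 other replication genes with a promoter, 13 held an E2F word. No test was made of these counts.

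Genes of the E2F and Myc factors themselves were measured in the same libraries. E2f2 went from 2878, 2557 and 2745 normalized counts with TFEB vehicle to 888, 790.0 and 896 with TFEB 4-OHT, a fall by 1.67 on the log2 scale (SE 0.10, adjusted p = 9.43e-15) by limma. E2f1 went from 299.9, 306 and 349.7 to 169, 263 and 281 in groups that did not overlap, with a log2 change of -0.45 (SE 0.20, adjusted p = 0.101) and an interaction of -0.93 (SE 0.29, adjusted p = 0.0223), a call that ended in 6 of 25 alternatives (up to 0.154). Myc, which is also the transgene of the model, had a change of -0.22 (SE 0.08, adjusted p = 0.0520) by limma in groups that did not overlap. This change passed in 11 of 25 alternatives, over which the adjusted p ran from 0.00288 to 0.189. With 4-OHT in both kinds of cell, Myc was lower in TFEB cells by 0.24 (SE 0.08, adjusted p = 0.0339) in groups that did not overlap, a call that ended in 8 of 25 alternatives (up to 0.185).

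Markers of other cell types and of the B lineage were summed in each library. Of 8 B cell precursor markers, 7 fell and Cd79a rose in TFEB cells with 4-OHT. The sum was 47136 to 50206 normalized counts with TFEB vehicle and 24643 to 26844 with TFEB 4-OHT, against 47617 to 54875 with vector 4-OHT. In vector vehicle libraries it was 47802 to 49999. T cell markers (3 of 7 tested, none called within TFEB cells) summed to 41.5 to 52.3 with TFEB vehicle and 97.9 to 160.1 with TFEB 4-OHT, mostly from Cd5, and to 10.3 to 20.5 and 6.44 to 74.7 with vector vehicle and vector 4-OHT. Cd3d, Cd3e, Cd4, Cd8a and Cd8b1 stayed under 10 on average in every group. Cd3g averaged 9.68 with vector vehicle and 11.05 with vector 4-OHT. In TFEB cells its mean went from 11.89 with vehicle to 1.94 with 4-OHT (adjusted p = 0.106 by limma). The Cd5 mean went the other way there, from 18.05 to 106.9. NK cell markers (1 of 6 tested, Prf1, which rose) summed to 17.1 to 55.3 and 96.8 to 171 in the TFEB groups and to 25.8 to 56.6 and 21.1 to 46.3 in the vector groups, with Klra8 at 0 in every library. Myeloid markers (2 of 7 tested, none called within TFEB cells) summed to 24.0 to 28.8 and 37.8 to 146 in the TFEB groups and to 10.2 to 28.8 and 9.30 to 41.5 in the vector groups. Erythroid and platelet markers (1 of 6 tested, not called in any comparison) summed to 17.1 to 58.1 and 9.69 to 43.9 in the TFEB groups and to 4.35 to 22.1 and 7.61 to 27.3 in the vector groups, with Hbb-bs, Hba-a1 and Pf4 at 0 in every library. Stromal and endothelial markers (5 of 6 tested, none called within TFEB cells), mostly Pecam1, summed to 832 to 869 and 693 to 847 in the TFEB groups and to 814 to 844 and 904 to 946 in the vector groups. With 4-OHT in both kinds of cell, Cd5 (adjusted p = 0.000271), Prf1 (0.00377) and Csf1r (0.0354) were higher in TFEB than in vector cells by limma, and Pecam1 (0.0483) and the 7 B cell precursor markers were lower. Of these, the Csf1r call ended in 10 of 24 alternatives and the Pecam1 call in 12 of 25. The part of these shifts in the changes of the replication genes was not tested.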

How the data were processed

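RNA-seq of 12 libraries was analysed. The authors deposited a signal per gene and library, normalized read counts made by dividing gene read counts by 1 size factor per library. The tools listed are DESeq2 1.6.3, STAR 2.5.3 and HTSeq 0.6.1, with build mm10, per the submitters' processing notes. For the annotation and the strand setting: not given in the sources used here. Every value above 0 (100%) was a whole multiple, within 0.001, of the value of 1 read, so whole reads were recovered (11849029 to 22109283 per library). A count of 0 allows up to 3 reads, or 2.21 to 4.15 normalized counts, which covers counting error only.

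Genes with at least 10 in at least 3 libraries (13111) were tested with limma 3.58.1 in R 4.3.3, on log2 of the value plus a pseudocount of 1, in all 12 libraries with 1 mean per group, a variance trend and 8 residual degrees of freedom. A fold change on this scale understates the change of low genes. P-values were adjusted by Benjamini-Hochberg over all tested genes, with a threshold of 0.05, for 5 comparisons. edgeR 4.0.16 and DESeq2 1.42.0 on the recovered reads, other pseudocounts, filters and scalings, a replicate block and leaving out each library were alternatives. The scripts were tested on simulated data. Members and lists were chosen with earlier results of these data known. In each role group, the 4 members with the largest change in TFEB cells and the smallest are given in full. Elsewhere up to 10 members are named per comparison, and up to 3 called genes for each list of other replication genes. Of 40 members, 16 share exon bases with another gene in the annotation, 3 of them by at least 20%.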

Additional observations from a re-analysis of the deposited data

Results flagged for a closer look

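The response to 4-OHT differed between TFEB and vector cells, by limma's interaction term, in 14 of 40 members and 18 of 56 other replication genes. Of all tested genes 8.01% were called lower. The 14 members and those of the 18 that are among the up to 3 genes named per list make 25 genes. These are listed because the effect of 1 treatment differed between 2 kinds of cell. Values are the log2 change in TFEB cells minus that in vector cells, with 3 libraries per group, and in all 25 the value was lower in TFEB cells. Members of licensing and helicase activation were Mcm6 at -0.51 (adjusted p = 0.00105), Mcm7 at -0.39 (adjusted p = 0.0138), Cdc6 at -0.77 (adjusted p = 0.0108) and Gins2 at -1.47 (adjusted p = 0.000225). Polymerase, clamp and Okazaki genes were Pola1 at -0.70 (adjusted p = 0.000824), Prim2 at -0.58 (adjusted p = 0.0146), Pold1 at -0.63 (adjusted p = 0.000407), Pcna at -0.47 (adjusted p = 0.00557), Rfc4 at -0.85 (adjusted p = 0.000176) and Lig1 at -0.48 (adjusted p = 0.0101). The cyclin and chromatin members were Ccna2 at -0.84 (adjusted p = 4.42e-06), Dnmt1 at -0.39 (adjusted p = 0.0188), Uhrf1 at -0.67 (adjusted p = 2.88e-05) and Chaf1b at -0.49 (adjusted p = 0.00640).

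Among the other replication genes named, the differences were Ticrr at -0.64 (adjusted p = 0.00178), Pole2 at -0.88 (adjusted p = 5.31e-05), Clspn at -0.69 (adjusted p = 0.00142), Atr at -0.68 (adjusted p = 0.000389), Dtl at -0.53 (adjusted p = 0.0245) and Fbxw7 at -0.54 (adjusted p = 0.00327) for firing, polymerase, checkpoint and ubiquitin ligase genes. For the remaining regulatory, chromatin and topoisomerase genes they were Cks1b at -0.57 (adjusted p = 0.0398), Asf1b at -0.68 (adjusted p = 0.0102), Hells at -0.80 (adjusted p = 2.28e-05), Ssrp1 at -0.45 (adjusted p = 0.00505) and Top2a at -0.98 (adjusted p = 3.39e-07). Of the members, Gins2 had the most negative difference, with 4-OHT changes of -1.31 in TFEB cells and 0.17 in vector cells, and Pcna had a difference although neither of its changes passed the test. The difference ended for Cks1b in 10 of 25 alternatives (adjusted p of 0.0578 to 0.251), among them without TFEB vehicle library 2 (0.155), TFEB 4-OHT library 1 (0.0890) or 2 (0.0809), vector 4-OHT library 1 (0.0578) or 2 (0.116), or vector vehicle library 2 (0.0625) or 3 (0.108). It ended for Dtl in 7 (0.0528 to 0.147), among them without TFEB vehicle library 1 (0.0617) or 2 (0.0528), TFEB 4-OHT library 1 (0.0964), vector 4-OHT library 1 (0.0824) or 3 (0.0572), or vector vehicle library 3 (0.0971). For Asf1b it ended without a variance trend (0.113) and without vector 4-OHT library 2, TFEB vehicle library 3 and TFEB 4-OHT library 2 together (0.0948). No cause of these differences was tested.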

How the results depend on the processing

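No member called in any of the 5 comparisons changed sign under an alternative; sign changes of values that were not called are not counted. With 4-OHT in TFEB cells, 13 to 17 members were called over all 25 alternatives, with the highest count after median centring, and 12 of the 14 were called in each of them. The exceptions were Gins1, over a range of adjusted p from 0.00595 to 0.173, and Dnmt1. Leaving out 1 library at a time gave 13 to 16. After median centring 16.0% of all tested genes were called lower with 4-OHT in TFEB cells, against 13.9% without it. In vector cells the count of members was 0 throughout. The interaction ran from 11 without a variance trend to 20 after median centring and held for 11 of 14 members in every setting, the exceptions being Cdc6, Prim2 and Dnmt1. Of all tested genes, 5.19% were called lower in the interaction without a variance trend and 10.0% after median centring. Without either change it was 8.01%. In 4-OHT, 24 to 28 members were called lower in TFEB than in vector cells, and Gins1 and Prim1 were the exceptions among the 25. Between the cells in vehicle, where 0 were called, a minimum value of 50 and upper-quartile scaling gave 1 each and DESeq2 gave 2, and leaving out 1 library gave 0 to 1. The gene gained was Ccne2, with Cdc45 in DESeq2; the cause was not tested.

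Leaving out vector 4-OHT library 2 and TFEB vehicle library 3 together, an alternative chosen after seeing the data, gave 15 members called in TFEB cells and 20 in the interaction. Leaving out TFEB 4-OHT library 2 as well, also chosen after seeing the data, gave 13 in each. Of the other replication genes 16 then fell in TFEB cells in place of 24, against 10.0% of all tested genes in place of 13.9%. The replicate block, with the replicate number as a term, gave 14 members in TFEB cells and 15 in the interaction. Replicate numbers did not pair the libraries: of 18 correlations between same-numbered libraries of different groups, from -0.115 to 0.165 over 7794 genes, 1 was over 0.1, and 4 of 12 libraries correlated best with their own number. Depth limits the lowest members most: Gins3 had 78.0 normalized counts in its lowest library, where 3 reads are worth 2.21 to 4.15.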
